A study of Mus musculus with 8 samples.

Results

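The T-cell receptor beta locus of the mouse, Trb, was described from the ATAC-seq peaks of 4 libraries of DN3 thymocytes. Its members were all peaks that overlapped a window on chromosome 6 from 40.85 to 41.6 Mb (mm10), which runs from before Trbv1 to past Trbv31. The window held 94 of the 169255 peaks of wild type 1 and 95 of the 156372 peaks of wild type 2. It held 71 of the 121022 peaks of mutant 1 and 74 of the 119023 peaks of mutant 2. Merging the 4 lists gave 98 consensus regions in the window, of 180321 on chromosomes 1 to 19, X and Y. All libraries came from C57BL/6 DN3 cells, the early thymocytes that rearrange Trb. Both wild-type libraries carried an intact N-Me, the Notch-Myc enhancer downstream of Myc, and both mutant libraries were homozygous for a mutant N-Me with GATA sites 1 and 2 altered. The edited element lies on another chromosome than Trb. Of the 8 samples of the series, 4 are T-cell leukaemias and were not used here.

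Trb encodes the beta chain of the T-cell receptor. The chain's variable part is put together in DN3 thymocytes, where the RAG1 and RAG2 recombinase first joins a diversity (D) to a joining (J) segment and then a variable (V) segment to the pair. The recombinase cuts at recombination signals, made of a heptamer and a nonamer, and acts only where chromatin is open. Each V segment has a promoter of its own, whereas a promoter next to Trbd1 and the enhancer Eb, which lies between Trbc2 and Trbv31 and carries sites for Runx, Ets, GATA and E proteins, open the D-J-C clusters. Trypsinogen genes, which make digestive enzymes in the pancreas, lie between the V segments and the D-J-C clusters and between Trbv1 and Trbv2.

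RefSeq promoter windows (GRCm38.p6, 250 bp before to 50 bp after a start, 300 bases) were at hand for 11 genes in the Trb window, none of them a V, D, J or C segment. Those shown here belong to genes inside the trypsinogen stretch and show what stretches without a peak contain. Gm5771, at chr6:41392106-41392405, and Prss1, at chr6:41458680-41458979, are near-identical copies, with 274 of 300 bases (91.3%) the same in a global alignment. Prss2, at chr6:41521526-41521825, is the one closest to Trbd1. All 3 are given on the plus strand, 5' to 3', with matches on either strand in capitals. The motifs searched were the core of the GATA factor site (GATA), the Runx core (TGTGGT), the E boxes of E proteins (CAGCTG in one form, CACCTG in the other), the signal heptamer (CACAGTG) and the signal nonamer (ACAAAAACC). The Ets core (GGAA) was searched too but is left in lower case, as 96.0% of all mouse windows hold it; Gm5771 held 7 matches, Prss1 8 and Prss2 8.
Gm5771: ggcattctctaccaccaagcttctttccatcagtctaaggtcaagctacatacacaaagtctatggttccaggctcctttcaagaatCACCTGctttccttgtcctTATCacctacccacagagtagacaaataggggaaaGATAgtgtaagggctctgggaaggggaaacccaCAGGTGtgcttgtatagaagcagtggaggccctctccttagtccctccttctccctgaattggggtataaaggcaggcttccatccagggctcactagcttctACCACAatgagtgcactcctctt
Prss1: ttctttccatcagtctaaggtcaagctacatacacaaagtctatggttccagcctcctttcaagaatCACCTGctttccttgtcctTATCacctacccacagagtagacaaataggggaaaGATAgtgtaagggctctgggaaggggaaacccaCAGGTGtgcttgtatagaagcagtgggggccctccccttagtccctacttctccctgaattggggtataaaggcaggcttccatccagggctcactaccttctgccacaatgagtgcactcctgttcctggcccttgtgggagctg
Prss2: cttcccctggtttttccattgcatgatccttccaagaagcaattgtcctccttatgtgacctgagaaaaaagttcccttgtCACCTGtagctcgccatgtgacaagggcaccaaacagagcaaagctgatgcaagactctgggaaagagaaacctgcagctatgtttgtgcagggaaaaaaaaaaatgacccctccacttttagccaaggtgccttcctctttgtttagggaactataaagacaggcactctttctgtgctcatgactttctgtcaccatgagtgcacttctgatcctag
Gm5771 and Prss1 each held 2 GATA and 2 CACCTG matches, Gm5771 also held 1 TGTGGT match, and Prss2 held 1 CACCTG and no GATA match. No capitalised matches overlap in the 3 windows. Of all 32851 RefSeq mouse promoter windows, 57.9% hold GATA, 16.8% hold TGTGGT, 20.2% hold CACCTG, 16.3% hold CAGCTG, 6.81% hold CACAGTG and 0.371% hold ACAAAAACC. These letters alone say nothing of whether a factor bound there.

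The 4 lists differed in how finely they were cut. Genome-wide, wild-type lists held 1.36 times as many peaks as mutant lists on average, yet covered almost the same length, 72.1 and 70.8 Mb against 72.3 and 69.3 Mb. The median peak was 284 and 302 bp wide in wild type and 444 and 421 bp in mutant, and neighbouring peaks stood at least 257 and 261 bp apart in wild type and 293 and 349 bp apart in mutant. Marker genes of DN3 thymocytes, among them Ptcra, Rag1, Rag2 and Notch1, had a peak within 1 kb of a gene end in every library, 13 of 13. The same held for 3 of 5 B-cell, 3 of 5 myeloid, 2 of 4 erythroid and 3 of 5 pancreatic acinar markers, while Ms4a1, Gata1, Hba-a1, Cpa1 and Amy2b had no peak in any library. As a rough background, 47.3% of all 32851 RefSeq promoter windows held a peak in all 4 libraries. Those windows of 300 bases are smaller than the span searched at the markers, so the 2 shares are not alike. Csf1r and Mpo, both myeloid genes, had peaks in both wild-type libraries and in neither mutant library. Genome-wide, 15% of the regions called in both wild-type libraries had no peak in either mutant library, a share of regions and not of genes. The part of other cells in the results was not tested. Since a peak list carries no read counts, library depth is unknown, and a stretch without a peak was one not detected at that depth. Separate animals for the replicates are not stated in the labels, and p-values here speak only of the spread among the 4 libraries.

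Wild-type libraries had more and narrower peaks in Trb than mutant libraries, and the mutant peaks together covered more of it. The 94 and 95 wild-type peaks averaged 94.5 ± 0.707 (SD, n = 2) and the 71 and 74 mutant peaks 72.5 ± 2.12 (SD, n = 2). The groups did not overlap, with an exact two-sided permutation p of 0.33, the smallest that 2 against 2 libraries can give. Their ratio was 1.30, close to the 1.36 of the whole lists. Per 10000 peaks of a list, the locus held 5.55 and 6.08 in wild type and 5.87 and 6.22 in mutant, where the groups overlapped (exact permutation p = 0.667).

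The covered length was 44955 and 45518 bp in wild type and 54823 and 49884 bp in mutant. The means were 45236.5 ± 398.1 bp and 52353.5 ± 3492 bp (SD, n = 2 each; exact permutation p = 0.33), and the groups again did not overlap. As a share of all covered bases, Trb took 0.0623% and 0.0643% in wild type and 0.0758% and 0.0720% in mutant (exact permutation p = 0.33). The median peak in the window was 298 and 299 bp wide in wild type and 502 and 449.5 bp in mutant (exact permutation p = 0.33), so the locus showed the same split in width as the lists as a whole. With peaks of fold 4 or more alone, the difference in covered length turned round.

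Most regions of the locus were found in every library. Of the 98 regions, 61 (62.2%) were called in all 4 libraries, beside 56.7% genome-wide, and a further 7 in 3 libraries. Another 7 were called in 2 libraries and 23 in 1. Regions called in all 4 were wide, with a median of 734 bp and a range of 155 to 2648 bp, whereas those of 1 library had a median of 131 bp. The deposited fold enrichment of a peak, the authors' ratio of its signal to the library's local background, reached 9.29 in the former and at most 2.78 in the latter. Fold and −log10 q are the authors' values for each peak and serve here only to describe and rank peaks within a list.

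Open chromatin was spread along Trb in blocks, shown in the map of peaks across the locus. The V cluster from Trbv2 to Trbv30, 241.731 kb long, held 61 regions, 45 of them in all 4 libraries. Its peaks numbered 64 and 65 in wild type and 51 in each mutant library, and covered 12.8% and 11.7% of it in wild type and 16.3% and 14.5% in mutant. The 34.792 kb from the end of Prss2 to just past Trbv31, with the D-J-C clusters and Eb, was covered most densely: 15 and 14 peaks in wild type and 10 and 9 in mutant covered 25.4%, 24.6%, 28.1% and 27.7% of it. The trypsinogen stretches stood apart from both. Between Trbv1 and Trbv2, 143.624 kb held 1 region, and between Trbv30 and the end of Prss2, 242.839 kb held 18 regions, of which 3 were called in all 4 libraries. A run of 121.063 kb from 40893948 to 41015010, with Prss58, 1700074P13Rik, Gm4744, 1810009J06Rik and Gm2663, held no peak in any library. No region was called in all 4 libraries over 165.394 kb from 41328217 to 41493610, where Try10, Prss3, Gm5771, Gm5409, Gm10334 and Prss1 lie. Some of these genes are near-identical copies, and how reads matching several copies were placed is not given in the sources used here.

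**Figure D1:**
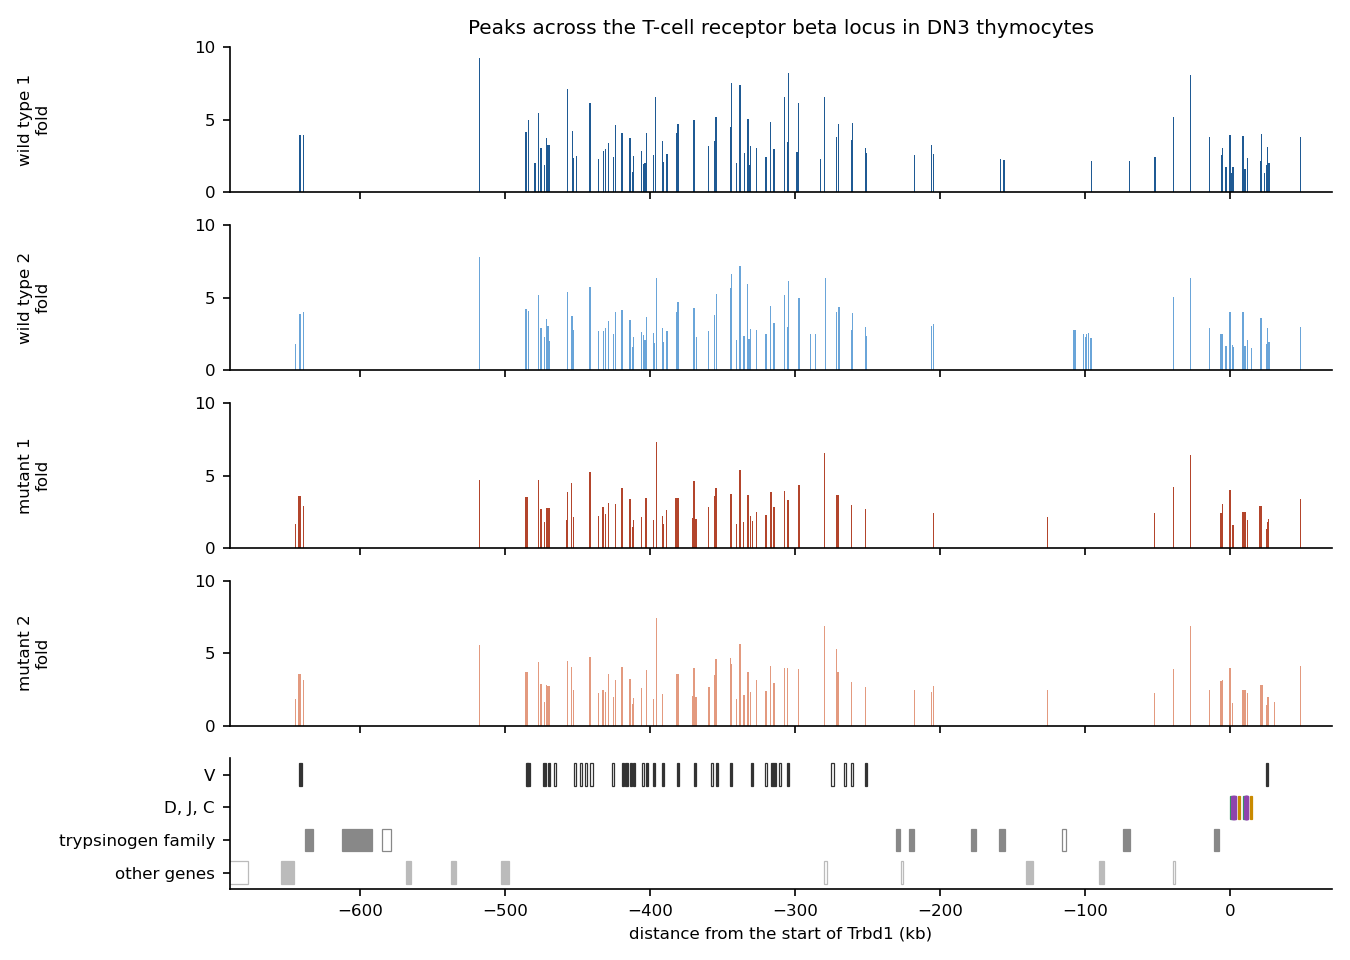
Peaks of the 4 libraries along the Trb window: the horizontal axis is the distance from Trbd1 in kb, the height of a bar is the authors' fold enrichment, and the lowest track marks V, D, J, C and other genes. Peaks stand close together over the V cluster and at the D-J-C end and are sparse over both trypsinogen stretches, in all 4 libraries.

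By segment class, each region was given to the first class it lay within 250 bp of. V segments took 28 regions, 24 of them called in all 4 libraries, with 31 and 32 peaks in wild type and 25 in each mutant library. D segments took 2 regions and 2 peaks in every library. J segments took 2 regions beyond the peaks shared with a D segment, with 3 peaks in each wild-type and 1 in each mutant library. C segments had 1 peak, in wild type 2. Trypsinogen genes had 4 peaks in wild type 1, 1 in mutant 2 and none in the other two libraries. Other genes had 2 peaks in each library, the stretch between Trbc2 and Trbv31 had 3 in wild type 1 and 1 in each other library, and 57 intergenic regions, 31 of them in all 4 libraries, made up the rest.

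Most V genes had a peak in every library and most V pseudogenes did not. RefSeq lists 22 V genes and 13 V pseudogenes in the locus. A peak lay within 250 bp in all 4 libraries at 20 of 22 genes (90.9%) and at 3 of 13 pseudogenes (23.1%). Of the V genes, Trbv13-1 had none in any library and Trbv21 had a peak in mutant 1 alone, with a fold of 1.85. Among pseudogenes, Trbv10, Trbv22 and Trbv29 had a peak in every library and Trbv11 in all but mutant 1. Trbv12-3 had one within 250 bp in wild type only. The other 8, Trbv6 to Trbv9, Trbv18, Trbv25, Trbv27 and Trbv28, had none in any library. Trbv6 to Trbv9 stand side by side, and 3 regions called in all 4 libraries lie among them but over 250 bp from each, at 41075778 to 41076119, 41078600 to 41079230 and 41079687 to 41079926. Trbv12 and Trbv13 segments are sets of similar copies, and how reads matching several copies were placed is not given in the sources used here, so their values are uncertain.

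Most V genes were touched by a peak in every library, some only in part. Overlap here means 1 bp or more. Peaks covered 5.86% to 7.66% of Trbv4 and 13.8% to 30.2% of Trbv31 in the 4 libraries. They covered 14.1% and 8.23% of Trbv26 in wild type 1 and 2 and 100% in both mutant libraries. Others, such as Trbv1, were covered in full in every library. In all 4 libraries a peak overlapped 19 V genes and 2 pseudogenes, reached the 250 bp on the leader side of 19 and 2, where the promoter lies, and reached the 39 bp past the other end of 19 and 2, where the recombination signal lies. Trbv4 and the pseudogene Trbv22 had a peak over the recombination signal side and none on the leader side, and Trbv30 the reverse. The pseudogene Trbv29 had leader-side peaks in all 4 libraries and lacked one on the signal side in wild type 2. The Trbv12-3 call turned on the 250-bp margin and on short peaks. A region beside it, at 41126847 to 41127563, was called in all 4 libraries. Its fold was 2.83, 2.64, 2.13 and 2.63 in wild type 1, wild type 2, mutant 1 and mutant 2. The mutant peaks of that region lay over 250 bp from the segment. The region at 41128071 to 41128267, called in wild type only, was 197 bp wide, and the nearest mutant peaks lay 827 and 885 bp from it.

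The highest fold near a V gene had a median of 4.02, 3.77, 3.37 and 3.60 in wild type 1, wild type 2, mutant 1 and mutant 2. Values for single segments follow in that order of libraries. Trbv26 had 8.23, 6.14, 3.34 and 3.98, and Trbv20 had 7.53, 6.65, 3.73 and 4.68. These were the strongest V genes of the wild-type lists, while Trbv17, with 5.01, 4.27, 4.62 and 3.96, was the strongest of mutant 1. Both wild-type lists had 2 separate peaks at Trbv26 and at Trbv20. By contrast, 1 joined peak lay at Trbv26 in both mutant lists and at Trbv20 in mutant 1. The fold of a joined peak cannot be set beside that of a separate, shorter one. At Trbv12-1 the fold was 4.07, 4.16, 4.17 and 4.07. Its −log10 q was 72.1, 56.9, 118.5 and 88.0. Those q values were the highest of the V cluster in wild type 1, wild type 2 and mutant 1, whereas in mutant 2 an intergenic region before Trbv15 reached 91.9. Trbv19 had 5.17, 5.29, 4.11 and 4.58.

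At the weak end were Trbv4, with 1.88, 2.29, 1.82 and 1.62, and Trbv13-2, with 2.48, 2.28, 1.96 and 1.91. The pseudogene Trbv10 had 6.13, 5.76, 5.26 and 4.78, the highest of any V segment in both mutant lists. Trbv22 had 2.42, 2.5, 2.3 and 2.4, and Trbv29 had 3.59, 2.76, 2.96 and 3.01. Pseudogene folds lay among those of the V genes, other than Trbv10 in the mutant lists.

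**Figure D2:**
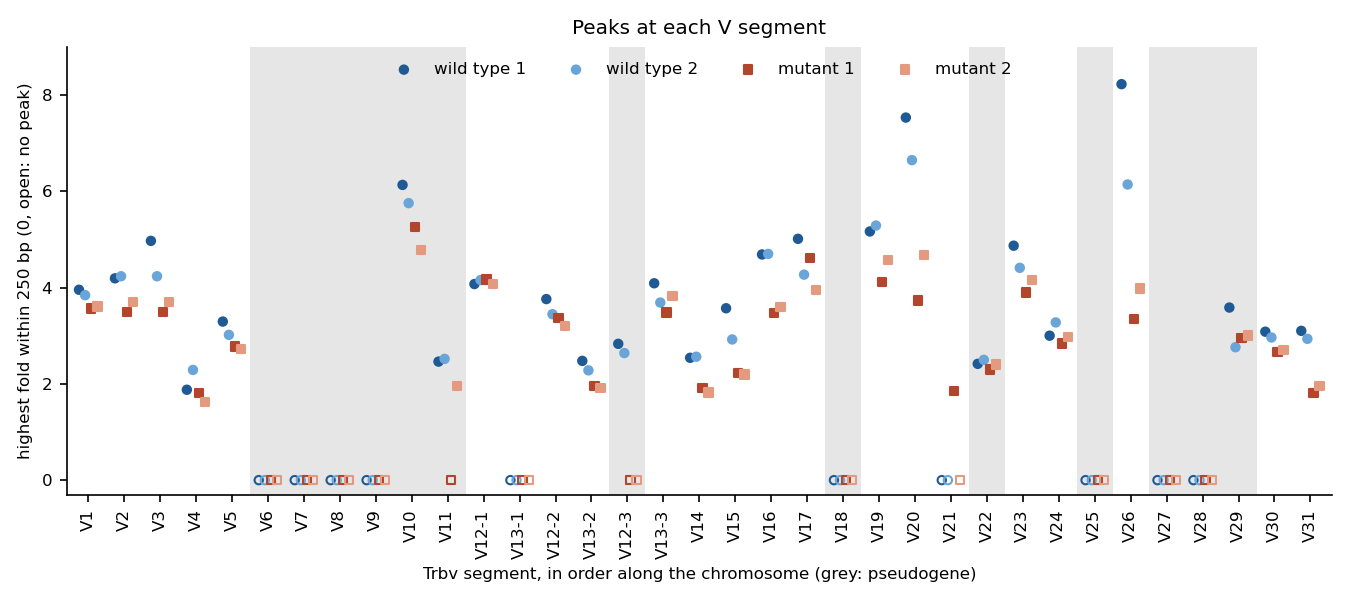
Highest fold enrichment within 250 bp of each V segment, in the order of the segments along the locus, for the 4 libraries: grey marks pseudogenes and an open point at 0 means no peak. The plot shows peaks at 20 of 22 V genes and 3 of 13 pseudogenes in every library, with the run from Trbv6 to Trbv9 at 0.

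Both D segments lay under peaks of high −log10 q in every library. By fold, 69.0% and 77.9% of the mutant 1 and mutant 2 lists ranked above the peak over Trbd2. In wild type 1 and wild type 2 the share was 40.5% and 36.3%. The peak over Trbd1, which with its promoter starts the D-J1-C1 cluster, had a fold of 3.93, 4.02, 4.03 and 3.99 in wild type 1, wild type 2, mutant 1 and mutant 2. Its −log10 q was 79.5, 62.7, 86.7 and 63.7. It was 1134, 1333, 1194 and 1098 bp wide, and 9.29%, 9.10%, 9.47% and 11.5% of a list had a higher −log10 q. By this rank, its widths and its fold, the Trbd1 peak stood at nearly the same place in all 4 lists.

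Trbd2 looked different in outline. In both wild-type lists it had a peak of its own, 830 and 843 bp wide, with a fold of 3.87 and 4.01, and a separate peak of 1132 and 1072 bp with a fold of 1.63 and 1.63 covered the Trbj2 segments. In both mutant lists 1 peak of 2248 and 2444 bp ran over Trbd2 and the Trbj2 segments, with a fold of 2.51 and 2.44. The −log10 q at Trbd2 was 119 and 90.3 in wild type and 58.3 and 42.9 in mutant. A fold or −log10 q of a joined peak cannot be set beside one of the D segment alone.

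The Trbj segments, which supply the end of the variable part, lay under broad and shallow peaks. Counting 14 Trbj segments, 11 had a peak within 250 bp in every library, all 7 of Trbj2 and 4 of 7 of Trbj1. Trbj1-1 had none in either mutant library, and Trbj1-6 and Trbj1-7 had none in mutant 2. The region over Trbj1, 41534158 to 41535767, had a fold of 1.74, 1.76, 1.56 and 1.58 and a −log10 q of 6.94, 5.76, 4.78 and 3.20. A peak of 159 bp at 41533630 to 41533788, at Trbj1-1 and Trbj1-2, was called in wild type 1 alone. Trbc1, which encodes a constant region, had no peak in any library, and Trbc2 had 1 of 82 bp in wild type 2 with a fold of 1.54. The open D-J segments thus contrasted with C segments that were almost without peaks, in each of the 4 lists.

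The stretch between Trbc2 and Trbv31, where Eb lies, held the most significant peak of its end of the locus in wild type 1, mutant 1 and mutant 2. A region at 41553165 to 41555518 was called in all 4 libraries. Its fold was 4.01, 3.61, 2.86 and 2.82 and its −log10 q 150.7, 89.0, 97.2 and 72.7, and 3.98%, 5.89%, 8.36% and 9.95% of a list ranked above it by q. Wild type 1 split it into peaks of 1198 and 427 bp, whereas it was a single peak of 1826, 2082 and 2159 bp in the other libraries. The lower rank in both mutant lists went with the wider outline, over which the fold is averaged, and the part of the outline in it was not tested. No element is named in the files, so the region is placed by its position alone.

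Beyond it, Trbv31, the V segment that stands after Trbc2 in the opposite orientation, had 2 regions in all 4 libraries. The stronger, from 41558356 to 41559723, had a fold of 3.1, 2.94, 1.81 and 1.96 at Trbv31. A region of 41544263 to 41544957, before Trbc2, was also called in all 4 libraries, with 2.37, 2.06, 1.90 and 2.24. From 5 kb before Trbd1 to the end of Trbv31, 7 regions were called in all 4 libraries. A further pair called in all 4 libraries lay between Prss2 and that stretch, at 41526288 to 41526728 and 41527131 to 41527678. Past Trbv31 the window held a region at 41581046 to 41581594, called in all 4 libraries with a fold of 3.82, 2.99, 3.35 and 4.12, and a peak at 41563359 in mutant 2 alone.

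**Figure D3:**
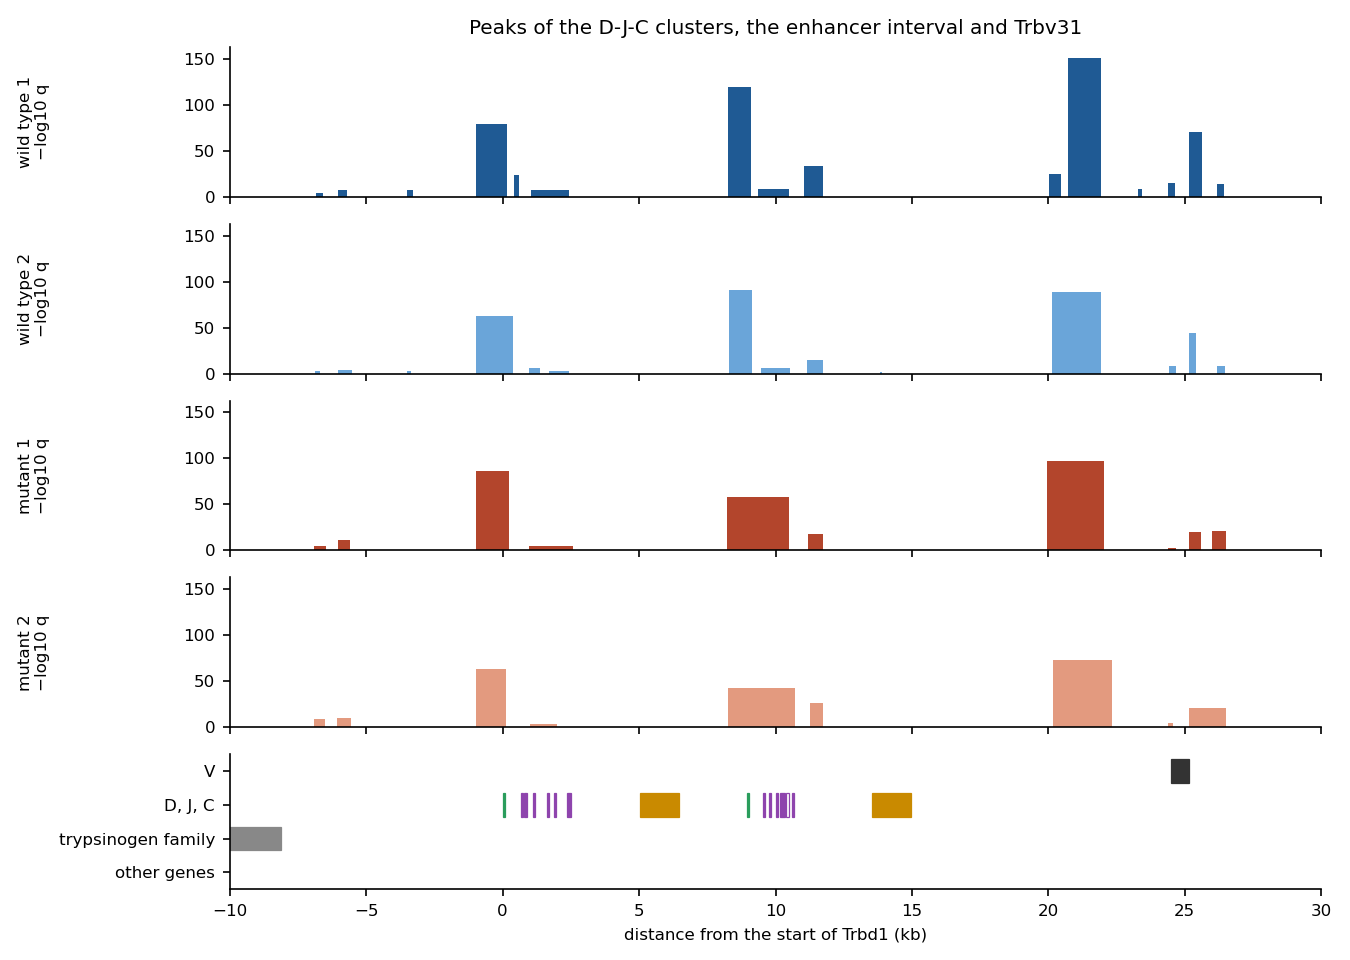
Peaks of the D-J-C and Eb end in the 4 libraries: the horizontal axis is the distance from Trbd1 in kb, the height is −log10 q, and the lowest track marks the segments. Tall peaks stand at Trbd1, at Trbd2 and between Trbc2 and Trbv31 in all 4 libraries, with 1 joined peak over Trbd2 and Trbj2 in the mutant lists.

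Trypsinogen genes were nearly without peaks. Of 10 genes that carry a Prss or Try name or synonym, none had a peak within 250 bp in all 4 libraries. Try5 had one in wild type 1 and mutant 2, with a fold of 2.61 and 2.46, and Prss3 and Prss1 had peaks in wild type 1 alone, of 2.13 to 2.31. None of the 11 promoter windows in the locus, those of Gm5771, Prss1 and Prss2 printed above among them, held a peak in any library, whereas 52.6% of all 32851 mouse windows did so in some library and 47.3% in all 4. The peak nearest to the Prss2 window lay 3167, 3199, 4462 and 3234 bp away. The windows of Gm5771 and Prss1 are 91.3% identical, as are those of Prss3 and Gm10334. How reads matching several copies were placed is not given in the sources used here, so a missing peak at such copies is uncertain. Of the pancreatic acinar markers elsewhere in the genome, Cela1, Ptf1a and Cel had peaks in all 4 libraries and Cpa1 and Amy2b in none.

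Some of the strongest peaks of the locus lay outside V, D and J segments. Ranked by the lowest fold of the 4 libraries, the first was at 41505272 to 41505808, 27.9 kb before Trbd1 and inside the trypsinogen stretch, with 8.11, 6.39, 6.39 and 6.89. Next came a region at the pseudogene Gm2719, between Trbv26 and Trbv27, with 6.59, 6.36, 6.53 and 6.88. A region between Trbv14 and Trbv15, at 41136541 to 41137380, had 6.58, 6.34, 7.32 and 7.45, the highest fold of the window in both mutant lists. The highest in both wild-type lists, 9.29 and 7.84, was at 41015011 to 41015350, the one region of the first trypsinogen stretch, and reached 4.73 and 5.56 in the mutant lists. Others among the first 10 were the intergenic regions at 41194576 to 41194771 and 41055623 to 41056297, and those at Trbv10, Trbv19, Trbv12-1 and Trbv17.

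Few regions of Trb were called in a single genotype. Both wild-type libraries shared 69 regions, of which 4 (5.80%) had no peak in either mutant library, beside 15% genome-wide. Both mutant libraries shared 66, of which 2 (3.03%) had no peak in either wild-type library, beside 1.75% genome-wide. These are descriptions over linked regions of 1 locus, and no test was made of the shares. With equal numbers of peaks per list, taken by q, the counts were 0 of 57 and 6 of 66. With all lists given the same shortest peak and joining gap they were 2 of 67 and 3 of 65. With 50% of a region covered they were 6 of 57 and 8 of 59. The order of the genotypes thus turned under each of these 3 settings. It was kept with a −log10 q of 5 or more, at 3 of 46 and 1 of 46. With a fold of 4 or more it was also kept, at 8 of 24 and 0 of 10. Genome-wide shares under these settings are not given here. Leaving out 1 library at a time gave 5 to 15 wild-type and 3 to 4 mutant regions: 13 and 15 for wild type without wild type 1 and 2, and 7 without mutant 2. The mutant count was 4 without wild type 2, mutant 1 or mutant 2.

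All 6 regions were short and weak. Those of wild type lay at 41128071 to 41128267 by Trbv12-3 with a fold of 1.93 and 2.39, and at 41129180 to 41129280 with 2.00 and 2.1. The others were at 41282035 to 41282148 just past Trbv30 with 2.72 and 2.38, and at 41529713 to 41529899, 3.5 kb before Trbd1, with 1.77 and 1.68. Peaks of the mutant libraries lay 553 to 2090 bp from these 4 regions. Those of the mutants lay at 41161793 to 41162069 with 2.08 and 2.04, and at 41406604 to 41406715 with 2.11 and 2.44. Wild-type peaks were 668 and 666 bp from the first and 29815 and 18059 bp from the second. None of the 6 covered a D or J segment or the stretch between Trbc2 and Trbv31.

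Single libraries accounted for 23 regions (23.5%, beside 20.1% genome-wide), 11 in wild type 1, 9 in wild type 2, 2 in mutant 1 and 1 in mutant 2. Genome-wide the same counts were 20255, 10565, 2868 and 2528, so most lay in wild type there too. Of the 9 of wild type 2, 6 stood together at 41424775 to 41437137 in the trypsinogen stretch. They were 289 to 1736 bp wide with a fold of 2.19 to 2.75 and a −log10 q of 1.31 to 3.12, and made up 9.51% of the bases covered in that library's locus. The outlines of the peaks matched best within a genotype. Over the window, the Jaccard index in bp was 0.733 between the wild-type and 0.819 between the mutant libraries, against 0.620 to 0.698 across genotypes. Over the 61 regions called in all 4, Spearman's rho of the fold was 0.963 and 0.956 within and 0.886 to 0.899 across genotypes, as a description over regions of the same libraries. The width and joining of peaks also differed between the lists of the genotypes, and their part in both measures was not tested.

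At the D-J-C and Eb end, the fold was low for the significance of the peaks. Each peak with a −log10 q of 10 or more was set beside all peaks of its own list whose −log10 q was within 10% of its own. At this end all 9, 5, 7 and 6 such peaks of wild type 1, wild type 2, mutant 1 and mutant 2 had a lower fold than the median of their peers, at a median ratio of 0.456, 0.535, 0.469 and 0.476. Across the V cluster, 24 of 36, 20 of 31, 25 of 29 and 22 of 28 peaks were lower, with a median ratio of 0.825, 0.846, 0.774 and 0.813. The few such peaks of the trypsinogen stretches had ratios above 1. Both such peaks around Trbv1 were also lower in every list, with a median ratio of 0.699, 0.744, 0.653 and 0.691. The share of bases under peaks was 24.6% to 28.1% at the D-J-C and Eb end and 11.7% to 16.3% in the V cluster. It was 4.20% to 5.64% around Trbv1 and 0.109% to 2.44% in the trypsinogen stretches. The relation of this share to the ratios was not tested.

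**Figure D4:**
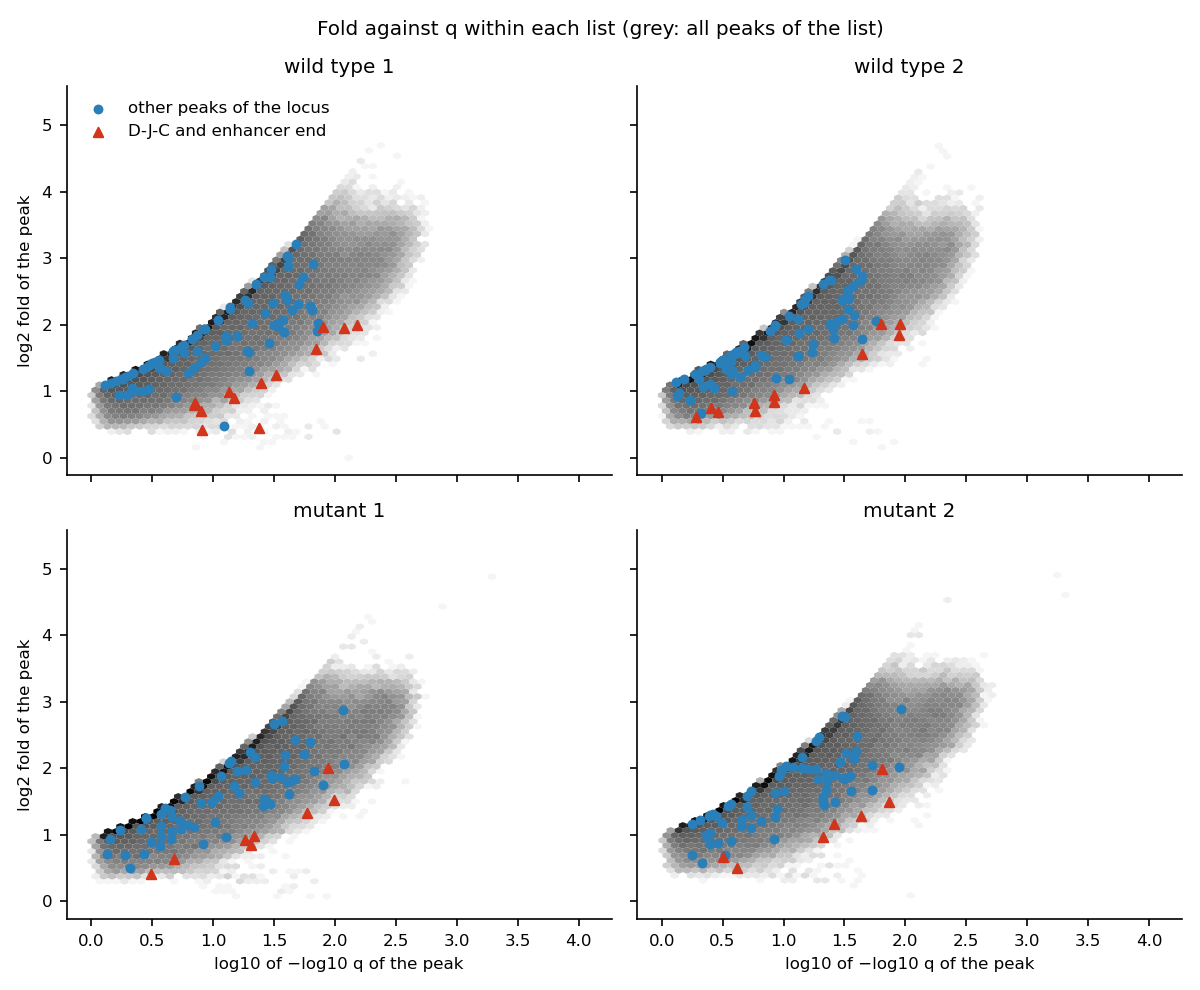
Fold enrichment on a log2 axis against −log10 q on a log10 axis for the peaks of each list, with the other peaks of the Trb window in blue and those of the D-J-C and Eb end as red triangles. The red triangles with a −log10 q of 10 or more lie below the median fold of peaks of like q in all 4 lists, with medians of 0.456 to 0.535 times it.

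Compared with the other antigen receptor loci, the annotated span of Trb held 14.2 regions per 100 kb, beside 17.8 in Tra/Trd, 28.1 in Trg, 10.8 in Igh and 0.978 in Igk, with none in Igl and 6.62 genome-wide. As a whole span, Trb thus lay above the genome and below the other T-cell receptor loci in density. This span includes the trypsinogen stretches, which held 0.696 and 7.41 regions per 100 kb. The V cluster held 25.2 and the D-J-C and Eb end 37.4. The share of V genes with a peak in all 4 libraries was 90.9% in Trb, 91.6% (109 of 119) in Tra/Trd and 71.4% (5 of 7) in Trg. It was 61.7% (74 of 120) in Igh, the heavy-chain locus, and 0 of 102 in Igk and 0 of 3 in Igl, the light-chain loci. For V pseudogenes the share was 23.1% in Trb, 29.4% (5 of 17) in Tra/Trd and 25.4% (16 of 63) in Igh. Of J genes, 10 of 13 in Trb, 4 of 53 in Tra/Trd, and none of 4 in Trg and of 4 in Igh had a peak in all 4 libraries. Segments of a locus share regions and libraries, so these shares are given with no test.

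**Figure D5:**
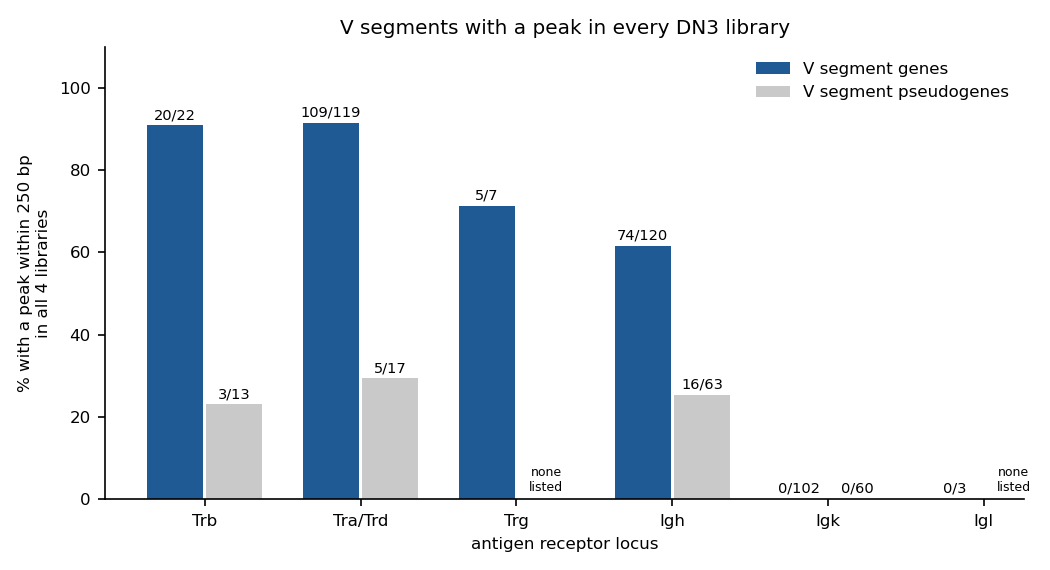
Share of V genes and V pseudogenes with a peak within 250 bp in all 4 libraries, in percent, for each antigen receptor locus. Trb and Tra/Trd stand highest for V genes, at 90.9% and 91.6%, and both light-chain loci are at 0.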

How the data were processed

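ATAC-seq was read from 4 deposited broad peak lists, 1 per DN3 library, so peaks had been called per library. Build mm10 (GRCm38), the peak caller MACS2 2.1.1, the aligner Bowtie2 2.3.3.1, SAMtools 1.7 and cutadapt 1.16 are named in the submitters' processing notes. Settings, read filters, the handling of reads with several matches and any shift of read ends are not given in the sources used. The deposited score is the −log10 q times 10, cut to a whole number. The deposited fold is a ratio to the local background in the same library. The deposited −log10 p and −log10 q describe a peak within its own list, and the lowest −log10 q was 1.00 to 1.02.

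Peaks elsewhere than on chromosomes 1 to 19, X or Y, 0.112% to 0.131% of a list, were dropped. Merging all peaks that overlapped gave the regions, called in a library at 1 bp of overlap. Segments came from a RefSeq table of GRCm38.p6, which gives no strand, so leader and signal sides were set from the known orientation of V segments. Exons and untranslated parts were not annotated. Single values were compared by exact two-sided permutation tests over libraries. The code was tested on simulated lists. The members, lists and named regions were chosen with earlier results of these data known. Regions named were drawn from the D-J-C end and beyond, those called in 1 genotype and the 10 with the highest lowest fold. Segments with a peak were named too, though not every member of these groups is printed. Alternatives were a −log10 q of 5, a fold of 4, 50% cover of a region, a common minimum length and joining gap, equal list lengths, other margins, each library left out and a replicate block. Whether replicate numbers pair the libraries is not stated in the labels, and the main tests did not pair them. Software was pandas 2.3.3 with numpy 2.4.6, and scipy 1.17.1, under Python 3.11.15.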

Additional observations from a re-analysis of the deposited data

How the results depend on the processing

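The number of peaks in Trb was higher in wild type under every alternative run, by 22 peaks as reported and by 2 to 23.5 peaks otherwise. The smallest difference came with list lengths made equal at 119023 peaks (exact permutation p = 0.667), and leaving out 1 library gave 20.5 to 23.5. The covered length of wild type minus mutant was -7117 bp. It reversed to 7092 bp with peaks of fold 4 or more, at means of 18827 and 11735 bp, was -11649.5 bp with equal list lengths, and was -9586.5 to -4647.5 bp with 1 library left out. The 4 regions called only in wild type became 8 at fold 4 or more, 6 at 50% cover, 2 with a common minimum length of 87 bp and joining gap of 348 bp, 0 with equal list lengths, and 5 to 15 with 1 library left out. The 2 called only in mutant became 1 from a −log10 q of 5 upward, 0 from a fold of 4 upward, 8 at 50% cover, 3 with the common length and gap, 6 with equal list lengths, and 3 to 4 with 1 library left out. The cause was not tested.

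The 61 of 98 regions called in all 4 libraries became 9 of 34 at fold 4 or more and 62 to 67 with 1 library left out. That fold filter left a mean of 28.5 wild-type and 15 mutant peaks in the window. The 23 V segments became 3 at fold 4 or more and 23 to 24 with 1 library left out, and the 7 regions from 5 kb before Trbd1 to Trbv31 became 0 and 7. V genes and pseudogenes numbered 20 and 3 as reported and, under alternatives to that split added after seeing the data, 2 and 1 at fold 4 or more, 16 and 2 from a −log10 q of 5 upward, 19 and 2 with the segment alone, and 21 and 5 within 1000 bp. The correlation of replicate differences was -0.0675 over 102231 regions and -0.112 over 61 regions of the window. Regions of the same libraries are not replicates, so these values cannot show whether same-numbered libraries were handled together. With the replicate number as a block the differences were 22 peaks and -7117 bp, with a p of 0.5, the smallest that 2 pairs can give by exact sign flips. The depth of the libraries is unknown, which limits what a missing peak can show.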
